A study of Mus musculus with 2 samples.

Results

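The genes described here are those of the integrated stress response: the kinases of translation initiation factor eIF2 (Eif2ak1, Eif2ak2, Eif2ak3 and Eif2ak4), the transcription factors Atf4 and Ddit3, the phosphatase subunits Ppp1r15a and Ppp1r15b, and the response genes Trib3 and Asns. They were chosen by name, and all 10 were found by symbol among the 43346 genes of the gene tables. Whole livers of mouse embryos, strain C57BL/6J and taken at embryonic day 14.5, gave the RNA. The labels name no genotype beyond the strain and no treatment, and each library held RNA of males and females pooled from littermates. There was 1 group of 2 libraries, called biological replicates 1 and 2, from separate biosamples of 1 donor label, and how many embryos each holds is not stated.

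When an eIF2 kinase is active it phosphorylates eIF2, which slows translation of most messages while the message of Atf4 is translated more. ATF4 protein then switches on genes of amino acid supply and, with continued stress, Ddit3 (which encodes CHOP). Ppp1r15a and Ppp1r15b guide a phosphatase to eIF2 and end the response. In red cell precursors, which fill the fetal liver, the heme-regulated kinase encoded by Eif2ak1 is known for matching globin synthesis to heme supply. RNA levels report neither phosphorylation nor translation.

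Counts assigned to genes summed to 102720906 for replicate 1 and 65640929 for replicate 2. A count of 0 allows up to 0.0292 CPM in replicate 1 and 0.0457 CPM in replicate 2, which like the intervals below covers counting error only. Red cell and hepatocyte markers were abundant, as the tissue label has it: the 10 erythroid markers had a median of 772 ± 17.1 TPM and the 10 hepatoblast and hepatocyte markers a median of 1127 ± 122 TPM. TPM, as the authors computed it, relates a gene's reads to its transcript length and to the library's sum, and values with ± are the mean and SD of the 2 libraries. The 5 macrophage markers had a median of 9.93 ± 1.03 TPM, while the neural, muscle and pancreas lists were at 0.125 ± 0.106, 0.085 ± 0.00707 and 0.05 ± 0.0283 TPM. Globin genes took 48.5% of the TPM in replicate 1 and 57.5% in replicate 2, and the median TPM of the 22233 genes with a count was 1.36 and 1.13. In whole tissue, fewer cells of a type and less RNA per cell cannot be told apart.

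The members spanned a wide range of levels, from Atf4 above 100 TPM in both libraries to Trib3 below 1 TPM. In order of mean TPM they were Atf4, Ppp1r15a, Asns, Eif2ak1, Ppp1r15b, Ddit3, Eif2ak4, Eif2ak3, Eif2ak2 and Trib3. Neighbours in this order did not overlap between libraries, except Ppp1r15a with Asns, Ppp1r15b with Ddit3 and Eif2ak3 with Eif2ak2. Ppp1r15a was above Asns in each library, whereas the other overlapping neighbours changed places between them. The median of the 10 members was 22.8 ± 5.25 TPM, beside 1.245 ± 0.163 TPM over all genes with a count.

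**Figure D1:**
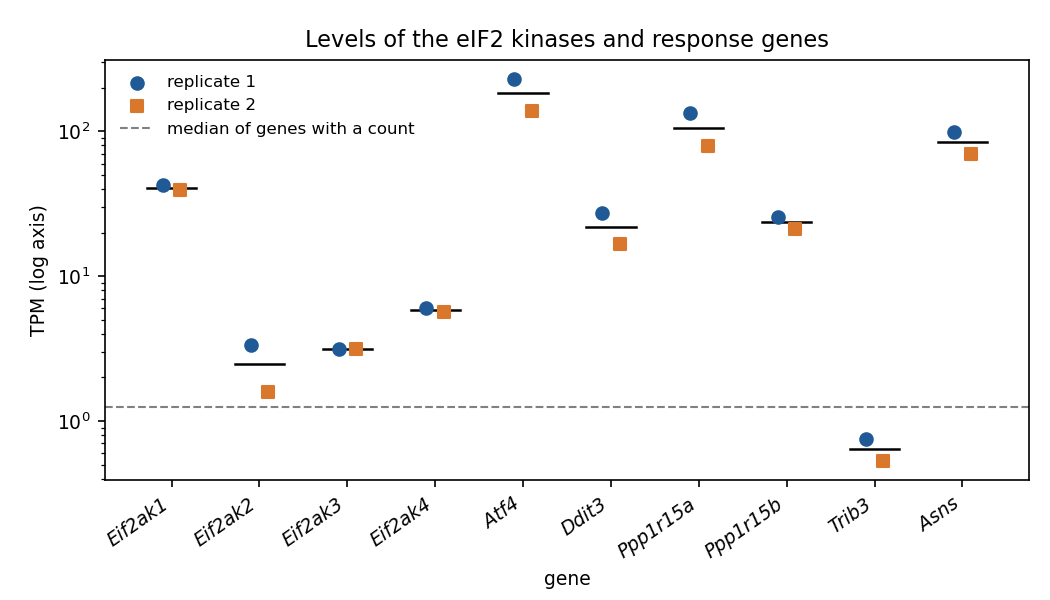
TPM of each member (log axis) in replicate 1 (circles) and replicate 2 (squares), with the mean as a bar and the median of all genes with a count as a dashed line. Eif2ak1 stands at 42.5 and 39.3 TPM above the other kinases, Atf4 is highest at 230 and 139 TPM, and Trib3 alone lies under the dashed line.

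Among the kinases Eif2ak1, the heme-regulated inhibitor of translation, was the most abundant. Eif2ak1 (ENSMUSG00000029613, mm10 chromosome 5, 143817788 to 143904251) was at 42.5 TPM in replicate 1 and 39.3 TPM in replicate 2, higher than 93.1% of genes with a count on average. Eif2ak4 (ENSMUSG00000005102; GCN2, the sensor of uncharged tRNA, chromosome 2, 118388618 to 118475234) followed at 6.00 and 5.70 TPM. Eif2ak3 (ENSMUSG00000031668; PERK, the sensor of the endoplasmic reticulum, chromosome 6, 70844515 to 70905245) was at 3.15 and 3.13 TPM. Eif2ak2 (ENSMUSG00000024079; PKR, the sensor of double-stranded RNA, chromosome 17, 78852564 to 78882573) was at 3.33 and 1.59 TPM. Eif2ak1 was thus higher than each of the others in both libraries, and in TPM Eif2ak2 differed most between libraries.

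Eif2ak1 held 77.3% of the summed TPM of the 4 kinases in replicate 1 and 79.1% in replicate 2 (78.2 ± 1.26%, n = 2). Its level was 3.40 and 3.78 times that of the other kinases together. Eif2ak4 held 11.2 ± 0.376%, Eif2ak3 6.01 ± 0.393% and Eif2ak2 4.63 ± 2.03% of the sum. The share of Eif2ak1 stood at 79.3 ± 1.34% when only coding transcripts were summed. With 2 libraries of 1 group no test of these shares was made. Eif2ak1 overlaps Aimp2, a gene of the opposite strand at 42.8 and 59.0 TPM, over 1548 nt; the labels call the libraries stranded, and how the authors' counting used strand is not given in the sources used here.

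Nearly all of the Eif2ak1 signal was assigned to its coding transcript. Eif2ak1-201 held 97.6% of the gene's abundance in replicate 1 and 98.0% in replicate 2. Eif2ak2-201 held 77.5% and 87.9%, and the rest went to transcripts annotated as retained introns or non-coding. Eif2ak3-201 held 91.0% and 75.0%, and the difference went mainly to Eif2ak3-203, a retained-intron model of 347 nt. That model took 2.08% on 1.11 estimated counts in replicate 1 and 22.7% on 3.58 counts in replicate 2, so few reads on a short model carry a large percent. Eif2ak4 had no such dominant form: Eif2ak4-201 held 58.0% and 41.6%, Eif2ak4-205 16.7% and 29.3%, and Eif2ak4-203 8.94% and 21.9%. All 3 of these are annotated as coding.

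**Figure D2:**
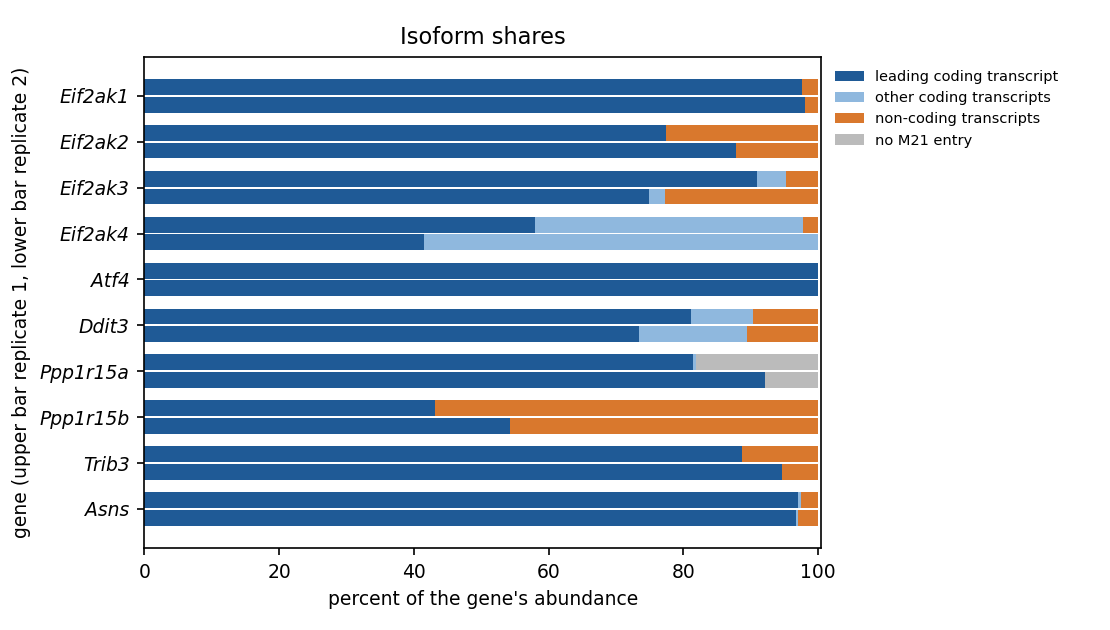
Percent of each gene's abundance by kind of transcript (upper bar replicate 1, lower bar replicate 2), from the authors' isoform percent. Eif2ak1 and Asns were nearly wholly in the leading coding transcript, and Eif2ak4 was spread over several coding transcripts. Ppp1r15b had 56.9% and 45.7% in a non-coding transcript. Atf4 has only 1 model, so its full bar is fixed in advance.

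Spliced reads give a second view, from an earlier mapping by the authors to mm9. Their junction table gives reads of replicates R1 and R2 without naming the library, so these letters are kept here. Every intron of the leading models of the 4 kinases had reads: 14 in Eif2ak1 (1066 to 2719 reads each), 15 in Eif2ak2 (26 to 83), 16 in Eif2ak3 (36 to 239) and 38 in Eif2ak4 (77 to 525). Reads on junctions without an annotated intron made up 2.00% of the Eif2ak1 total (Wilson 95% interval 1.82 to 2.20%), 1.39% for Eif2ak2, 0.907% for Eif2ak3 and 1.42% for Eif2ak4. Over the whole series unannotated junctions held 18.3% of junction reads. That value also takes in junctions outside genes or reaching across them, which the shares of single genes leave out. The kinases therefore cannot be ranked against it. The mm9 exon table adds no position of its own, since exons held by the same transcripts share a value there (Eif2ak1 had 19 exon rows with 5 distinct values).

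Of the 428 unannotated reads of Eif2ak1, 222 lay on a junction that joins exon 13 to exon 15 and leaves out exon 14. They were 175 reads in R1 and 47 in R2, over the span from 144658427 to 144662653 of mm9 chromosome 5. The flanking introns of the full form had 1605 and 1487 reads. The skipping share, taken as skipping reads over their sum with the mean of the flanking introns, was 12.6% (Wilson 95% interval 11.1 to 14.2%), or 13.6% in R1 and 9.79% in R2. The deposited irreproducible discovery rate of this junction was 0.000. As a measure of how common this is, 219 of 64483 internal exons with at least 100 reads on each flanking intron and no annotated skip reached 10% (0.340%). This exon was picked after its reads were seen.

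Exon 14 is coding, has 234 bases and spans codons 508 to 585 of 619, and a message without it keeps the reading frame for 541 codons. The exon is shown because the junction removes exactly these bases. The junctions follow with 24 bases each side, where capitals mark the bases after the junction. The sequences are from GENCODE M21 transcript Eif2ak1-201, build GRCm38, plus strand, exon 14 at chr5:143899014-143899247; the mm9 junction was matched to it by equal exon and intron lengths.
Eif2ak1 exon 14: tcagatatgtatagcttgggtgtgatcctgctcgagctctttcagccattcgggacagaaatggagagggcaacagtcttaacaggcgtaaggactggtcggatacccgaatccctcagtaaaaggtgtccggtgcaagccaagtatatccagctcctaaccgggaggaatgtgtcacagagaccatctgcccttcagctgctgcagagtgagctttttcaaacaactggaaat
Exon 13 to exon 14: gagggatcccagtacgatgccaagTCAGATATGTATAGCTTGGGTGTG
Exon 13 to exon 15: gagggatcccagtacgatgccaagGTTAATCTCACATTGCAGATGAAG

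**Figure D3:**
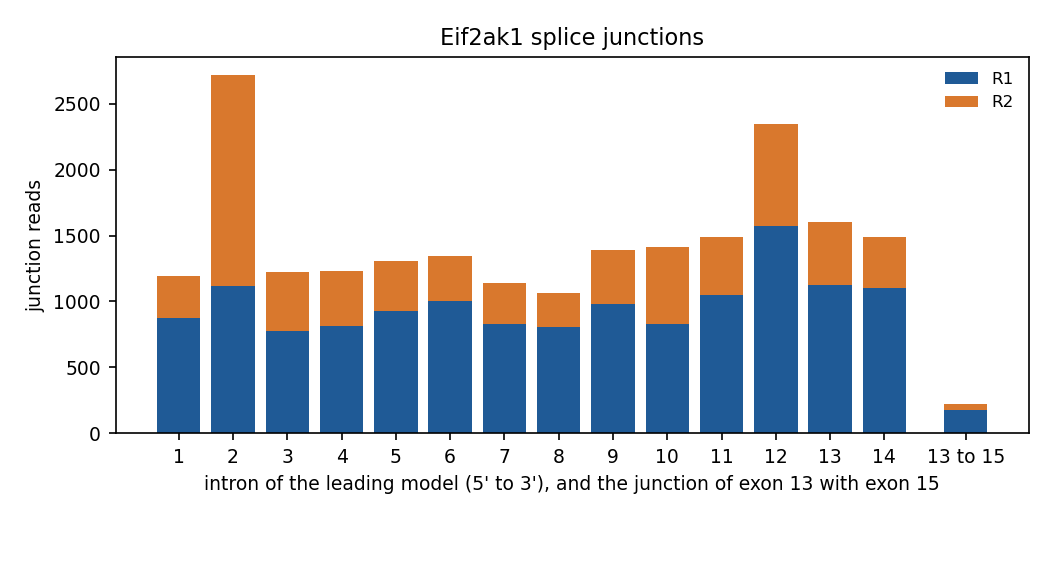
Reads on each intron of the leading Eif2ak1 model, 5' to 3', stacked by R1 and R2, and on the junction of exon 13 with exon 15. Introns 13 and 14 had 1605 and 1487 reads and the skipping junction 222; intron 2, with 2719 reads, was the only one with more R2 than R1 reads.

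In Eif2ak4 the largest unannotated junction left out exon 20, a 54-base exon, with 17 reads against 312 and 297 on the flanking introns (5.29%, interval 3.32 to 8.29%). That share was 8.15% in R1 (13 reads) and 2.47% in R2 (4 reads), so R2 lay below the interval of the pooled reads. An annotated junction without exon 3 had 10 reads against 118 and 81. For Eif2ak2 no exon of the leading model had a skipping read, and for Eif2ak3 there was 1.

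Atf4, the transcription factor whose translation rises in the response, had the highest TPM of the members. Atf4 (ENSMUSG00000042406, chromosome 15, 80255184 to 80257541) was at 230 TPM in replicate 1 and 139 TPM in replicate 2 (185 ± 64.2 TPM), above 98.45% of genes with a count. In the mm9 gene table its mean of 55.6 RPKM lay beside 55.7 RPKM for Ppp1r15a, which was the higher of the pair in the first column (75.3 against 67.2 RPKM) and the lower in the other (36.0 against 44.0 RPKM). Its introns carried 16086 reads (intron 1) and 7129 reads (intron 2), more than any intron of the other members. An unannotated junction of 283 nt in the first exon had 70 reads, and an intron of that length belongs to Atf4-202 in the later GENCODE M21 annotation. The transcript table has 1 model for Atf4, so it gives no isoform share.

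Ddit3, a target of ATF4 that encodes the stress factor CHOP, stood well below it. Ddit3 (ENSMUSG00000025408, chromosome 10, 127290774 to 127296288) was at 27.2 TPM in replicate 1 and 16.8 TPM in replicate 2. Atf4 exceeded Ddit3 8.46-fold in replicate 1 and 8.31-fold in replicate 2, a log2 ratio of 3.07 ± 0.0184. In the mm9 gene table it was larger, at 3.97 on the log2 scale. A second M21 gene named Ddit3 overlaps this one over 2925 nt and was not analysed here.

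Ddit3 was the exception among the members in its junctions: 52.3% of its junction reads (interval 49.7 to 54.9%) were on junctions without an annotated intron. Of these 731 reads, 704 were on junctions of exactly the length of an annotated first intron but moved at both ends, with 593 on the commonest. A move of up to 10 nt was allowed. The commonest starts at 126727946 of mm9 chromosome 10, where the annotated intron starts at 126727948. With the moved junctions counted with the introns of their length, 611 reads joined exon 1 to exon 2 and 93 joined exon 1 to exon 3. The latter leave out exon 2, which has 48 bases and lies before the start codon, in 13.2% of these reads (interval 10.9 to 15.9%). The authors' isoform percent for Ddit3-203, the transcript of this form, was 9.21% in replicate 1 and 16.0% in replicate 2. Ddit3-201, with exon 2, held 81.1% and 73.4%.

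Of the phosphatase subunits, the stress-induced Ppp1r15a (GADD34) was more abundant than the constitutive Ppp1r15b (CReP). Ppp1r15a (ENSMUSG00000040435, chromosome 7, 45522916 to 45526268) was at 133 TPM in replicate 1 and 78.9 TPM in replicate 2. Ppp1r15b (ENSMUSG00000046062, chromosome 1, 133131143 to 133139783) was at 25.8 and 21.3 TPM. The log2 ratio of Ppp1r15b to Ppp1r15a was -2.37 in replicate 1 and -1.89 in replicate 2 (-2.13 ± 0.343). Over coding transcripts only it was -2.97, since much of Ppp1r15b was assigned to a non-coding transcript.

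For Ppp1r15b the isoform estimate and the spliced reads differed. The transcript table gave 56.9% in replicate 1 and 45.7% in replicate 2 to Ppp1r15b-202, a processed transcript that shares the last exon with the coding Ppp1r15b-201 and replaces its long first exon by a short one. The 4752-nt intron of Ppp1r15b-202 had 57 reads and the 3047-nt intron of Ppp1r15b-201 had 330. The non-coding form thus held 14.7% of the reads that decide between them (interval 11.5 to 18.6%), or 12.8% in R1 and 20.0% in R2. The leading transcript also differed between the libraries. The values come from different mappings and annotations, and their part in the gap was not tested.

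For Ppp1r15a a similar gap appeared at a small model. ENSMUST00000139268, 389 nt long, was given 17.3% of the gene in replicate 1 and 6.66% in replicate 2, on 513 and 45.7 estimated counts. The 465-nt intron, which M21 gives to a transcript of that length, had 1 read, against 3905 on the 416-nt intron of Ppp1r15a-201. The first intron of Ppp1r15a had 6769 reads.

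Unannotated Ppp1r15a junctions were many and thin: 92 of them lay wholly inside the 1653-nt coding exon 2, with 184 reads in all. Of these junctions, 41 with 105 reads had a length within 3 nt of a multiple of 114. That is the period of a tandem repeat in this exon, which encodes repeated units of GADD34. The 4 units are shown because these 41 junctions have lengths near a multiple of their spacing, while the rest of the 92 do not. Junction ends were not required to lie in the repeat, and the share expected without it was not computed. They are from GENCODE M21 Ppp1r15a-201, build GRCm38, minus strand, from chr7:45524377-45524490 (unit 1) to chr7:45524035-45524148 (unit 4). Capitals mark bases that differ from unit 1, which are 5 in unit 2, 5 in unit 3 and 7 in unit 4.
Unit 1: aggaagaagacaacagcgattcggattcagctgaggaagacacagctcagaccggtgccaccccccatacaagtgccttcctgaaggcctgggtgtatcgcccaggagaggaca
Unit 2: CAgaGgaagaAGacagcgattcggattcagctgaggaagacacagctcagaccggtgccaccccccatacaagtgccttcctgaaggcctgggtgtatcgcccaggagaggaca
Unit 3: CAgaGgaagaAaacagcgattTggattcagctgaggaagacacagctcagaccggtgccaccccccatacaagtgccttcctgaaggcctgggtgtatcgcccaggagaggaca
Unit 4: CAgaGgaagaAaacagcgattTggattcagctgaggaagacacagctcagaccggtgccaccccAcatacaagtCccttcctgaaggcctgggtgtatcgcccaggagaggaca

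The amino acid and feedback genes of the response lay at opposite ends of the range. Asns (ENSMUSG00000029752, chromosome 6, 7675169 to 7693254), which encodes asparagine synthetase, was at 99.1 TPM in replicate 1 and 69.4 TPM in replicate 2. Trib3 (ENSMUSG00000032715, chromosome 2, 152337422 to 152344032), whose product restrains ATF4 and CHOP, was at 0.75 and 0.53 TPM, on 156 and 87 counts. Both are known targets of ATF4, and Asns exceeded Trib3 132-fold in replicate 1 and 131-fold in replicate 2, a log2 ratio of 7.04 that fell to 5.68 when 1 TPM was added to each level. All 3 introns of Trib3 had reads (14, 25 and 25).

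Asns-201 held 97.1% and 96.8% of Asns. Its 11 introns had 2084 to 4276 reads, and 0.944% of junction reads were unannotated. The largest of these junctions was a form of intron 10 that is 85 nt long instead of 86, with 66 reads against 2108. The next left out exon 2, where the coding sequence begins, with 43 reads or 1.29% (interval 0.958 to 1.73%).

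The members' promoters were searched for TGATGNAA, a motif of the composite sites that ATF4 binds with C/EBP proteins, on both strands. RefSeq promoter windows (GRCm38.p6, 250 bases before to 50 after a start) were at hand for 9 of the 10 members, in 10 entries; Ppp1r15b had none. Asns and Trib3 had a match. Of all 32851 windows, 3.97% held one. The Trib3 match lies after the start. The Asns match begins 23 bases before it and is in capitals in the 30 bases before the start, at chr6:7693210-7693239 on the minus strand.
Asns promoter: agccacaTGATGAAActtcccgcacgcgtt

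The libraries were compared gene by gene, which asks how far the members' levels hold between these replicates. None of the 10 members differed by both an adjusted p under 0.05 and 2-fold in a two-sided exact binomial test of the counts of both libraries. Of the 17906 genes tested 8.10% did. Of the 11572 tested genes that averaged 1 TPM or more, 338 were called lower and 65 higher in replicate 2. With 10 genes, the lack of calls does not set the members apart from this background. Without a fold minimum 7 members passed, 5 lower and 2 higher in replicate 2, beside 30.9% of genes lower and 29.2% higher, so passing was common to most genes. In edgeR's exact test no member passed at an adjusted or an unadjusted p under 0.05, and 244 of all genes passed by adjusted p (1.36%). Its common dispersion was estimated from the same 2 libraries taken as a single group, so it contains the difference under test, and the lack of calls does not show that members were equal. These tests compare 2 libraries, not conditions.

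On counts scaled by TMM, Atf4, Ddit3, Ppp1r15a, Asns and Eif2ak2 were the 5 that passed as lower in replicate 2, and none of the 5 did so with spike-in scaling, under which 4.15% of all tested genes passed as lower and 73.6% as higher. Ddit3 differed by -0.67 on the log2 scale (95% interval -0.78 to -0.56, 2259 and 912 counts), Atf4 by -0.52 (-0.55 to -0.50), Ppp1r15a by -0.38 and Asns by -0.31. Eif2ak2 differed by -0.66 (-0.80 to -0.52). In TPM the log2 ratio of Eif2ak2 was -1.07, which is more than 2-fold, and that of Ppp1r15a was -0.76. On counts Eif2ak1 differed by 0.15 and Ppp1r15b by 0.06. In TPM both were lower in replicate 2, at -0.11 and -0.27 on the log2 scale, so their direction depends on the unit. Eif2ak3, Eif2ak4 and Trib3 did not pass even without a fold minimum, at -0.06, 0.06 and -0.20. The interval of Trib3 ran from -0.60 to 0.19.

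These directions depend on the scaling. The spike-in RNAs took 2.84% of counts in replicate 1 and 1.82% in replicate 2, so scaling to them moved the median of all tested genes from -0.01 to 0.65 on the log2 scale. With it Atf4, Ppp1r15a, Asns, Eif2ak3 and Trib3 became higher in replicate 2, and Ddit3 and Eif2ak2 came to -0.01 and 0.00. Relative to the median of all genes, the differences of Ddit3 (-0.66), Eif2ak2 (-0.65), Atf4 (-0.51), Ppp1r15a (-0.37) and Asns (-0.30) are by construction the same under either scaling. The globin share given above differed between these libraries too. By TMM, 4 of 5 neural markers (all but Map2) were called higher in replicate 2, beside 632 of all 17906 tested genes. The 5 markers summed to 1.40 and 5.45 TPM, with none at 0, and most of this rise was Tubb3 (141 and 588 counts). Neurod1, Sox2 and Snap25 had few reads, at 3 and 16, 14 and 32, and 11 and 35 counts. The part of the globin share or of the neural markers in the members' differences was not tested.

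**Figure D4:**
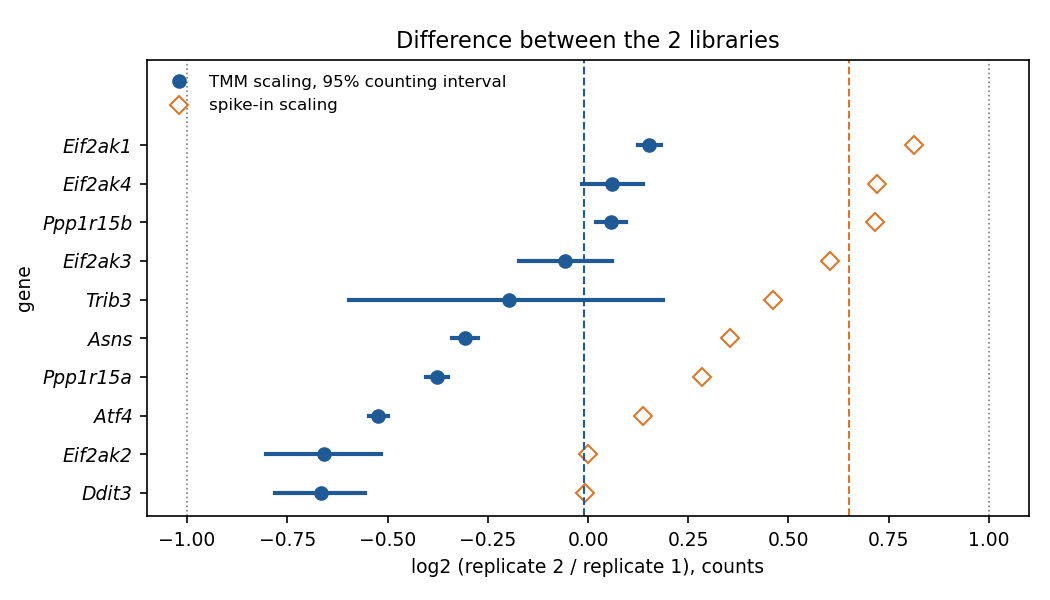
Log2 ratio of replicate 2 to replicate 1 for each member, on counts scaled by TMM (circles, with 95% counting intervals) and by spike-ins (diamonds). Dashed lines are the median of all tested genes under each scaling and dotted lines mark 2-fold. Ddit3 at -0.67 and Eif2ak1 at 0.15 are the ends under TMM. Under spike-ins Ddit3 and Eif2ak2 lie at about 0 and the other members above it.

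The share of R1 reads varied along single genes. Over the 78709 annotated introns of the series with at least 100 reads, the median R1 share was 63.2%, from 48.7% at the 10th percentile to 77.3% at the 90th. In the members, some of whose introns had fewer reads than that, the first intron was at 87.2% in Eif2ak2, 86.5% in Atf4, 85.3% in Ppp1r15a, 85.0% in Eif2ak3 and 84.2% in Eif2ak4. The last intron of the same genes was at 69.6, 67.2, 45.6, 58.7 and 66.3%. The first introns of Eif2ak2 and Eif2ak3 had 47 and 80 reads and the last of Eif2ak2 had 56, so these 3 shares fall under the minimum of 100 reads used for the series. Eif2ak1 had 73.5% and 74.0%, and Asns 60.6% and 71.8%, without this drop. Inner introns ran from 57.3% (intron 11) to 85.7% (intron 9) in Eif2ak2. In Eif2ak4 they ran from 43.4% (intron 22) to 85.6% (introns 5 and 6). Of these inner introns only intron 22 of Eif2ak4 reached 100 reads. The shares of these 2 genes thus did not fall steadily from the first intron to the last. Over the series 15% of first introns reached 80%, against 5.27% of later ones. A difference between R1 and R2 in these genes therefore depends on the place in the message at which it is read, and the part of this in the library differences above was not tested.

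The genes around the response were mostly expressed. All 9 lists of related genes had a median above that of all genes with a count, and 6 of them above the 7.93 TPM found over tested genes that averaged 1 TPM or more. Levels of single genes in these lists are means of the 2 libraries unless both are given. The lists were written with earlier results of these data known. The subunits of eIF2 and of its exchange factor eIF2B all exceeded 1 TPM (9 of 9, median 21.9 TPM), led by Eif2b2 at 42.6 and Eif2s3x at 38.5 TPM, with Eif2b3 lowest at 14.3 TPM. Regulators of the kinases and of the phosphatase (14 genes, median 25.8 TPM) were led by the chaperone Hsp90ab1 at 319 TPM and the phosphatase subunit Ppp1ca at 189 TPM.

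Among transcription partners of ATF4 and related transcription factors (10 genes, median 5.74 TPM), Nfe2l2, Atf5 and Cebpa were at 26.8, 22.8 and 16.1 TPM. Atf3 was lowest at 0.635 TPM. Cebpb was the only gene of the 9 lists called between libraries by the binomial test, at 16.4 and 5.36 TPM, with a log2 difference of -1.43 by TMM, and of -0.77, short of 2-fold, with spike-in scaling. Amino acid synthesis genes (11 genes, median 22.6 TPM) were led by the serine synthesis genes Phgdh at 114 and Psat1 at 72.6 TPM and by Shmt2 at 67.0 TPM, while Aldh1l2 was at 0.125 TPM. Amino acid transporters (9 genes, median 17.3 TPM) were led by the glutamine carrier Slc1a5 at 153 TPM and the glycine carrier Slc6a9 at 47.4 TPM, while the cystine carrier Slc7a11 was at 0.09 TPM. The 12 tRNA synthetases had a median of 26.6 TPM, from Lars at 9.28 to Mars at 56.7 TPM.

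Effectors downstream of ATF4 and CHOP had the lowest median of the 9 lists (13 genes, 3.23 TPM, still above the 1.245 TPM of all genes with a count). They were led by Gadd45a at 78.1, Eif4ebp1 at 52.9, Ero1l at 10.5 and Gdf15 at 7.51 TPM, and Fgf21 had no count in either library. The other arms of the unfolded protein response (16 genes, median 19.8 TPM) were led by the chaperones Calr at 198, Hspa5 at 159 and Hsp90b1 at 98.4 TPM. Interferon response genes, the setting in which Eif2ak2 is induced, had a median of 4.48 TPM over 12 genes, with Bst2 at 37.6 and Mx1 at 0.365 TPM. Without a fold minimum 10 of 12 tRNA synthetases were lower and 1 higher in replicate 2, and 6 of 9 transporters higher and 1 lower, on TMM scaling, but with spike-ins 0 synthetases were lower and 10 higher, and 0 transporters lower and 7 higher. Over all tested genes 30.9% were lower and 29.2% higher by TMM, and 4.15% lower and 73.6% higher with spike-ins, so the spike-in counts of these lists are near the background. None of the list genes passed edgeR's exact test.

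**Figure D5:**
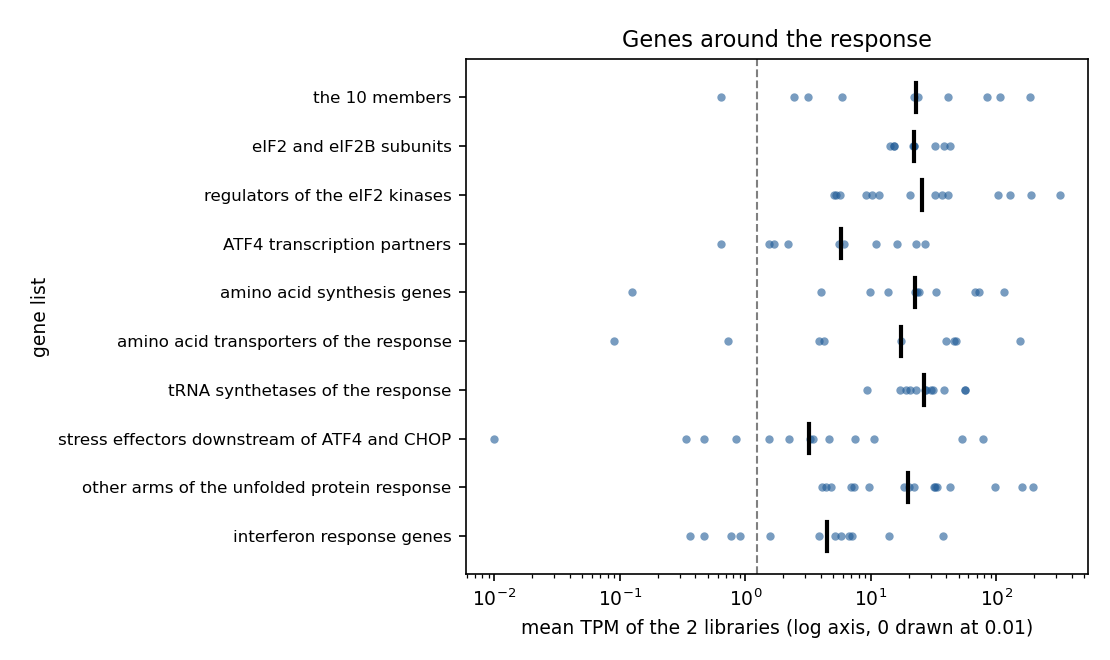
Mean TPM of each gene (points, log axis) in the members and in 9 lists of related genes, with the list median as a black bar and the median of all genes with a count as a dashed line. The list medians run from 3.23 TPM for the stress effectors to 26.6 TPM for the tRNA synthetases, and Fgf21, at 0, is drawn at 0.01.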

How the data were processed

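Polyadenylated RNA of 2 liver libraries was measured. The authors deposited gene and transcript tables on mm10 that hold, per the file headers, an expected count for each gene, TPM, FPKM and, per transcript, the isoform percent. The deposited mm9 files hold RPKM of annotated models and junction read counts, each with an irreproducible discovery rate, for replicates that are not tied to a library. The aligner is not given in the sources used here. Tables were read with Python 3.11.15, pandas 2.3.3, numpy 2.4.6 and scipy 1.17.1 and drawn with matplotlib 3.10.9. Symbols and positions come from GENCODE M21 on GRCm38, the build of mm10, and older symbols from RefSeq synonyms.

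Expected counts were rounded. A quasi-likelihood test in edgeR needs at least a pair of groups. Each gene's counts in the 2 libraries were therefore tested as binomial given their sum (exact, two-sided). TMM sizes came from edgeR 4.0.16 (R 4.3.3), p-values were adjusted by Benjamini-Hochberg across genes that reached 10 counts in all, and folds had 0.5 added to each count. On counts simulated with counting error only, it was checked to recover seeded changes. That setting holds no spread between replicates, so it does not show how the test behaves on these libraries. DESeq2 1.42.0 gave size factors for an alternative. Both libraries are labelled biological replicates; nothing says how the embryos were divided between them. The binomial p-values measure departure from counting error between these 2 samples and contain no estimate of the spread between replicates. Spike-in and other rows that name no gene stayed out of sizes and tests (spike-ins 2.84% and 1.82% of counts, phiX 0.0764% and 0.0857%).

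Annotated introns are those of the mm9 exon models, with model gaps under 60 nt closed. Of the junctions, 168883 carry the authors' flag for annotated introns, and all of them match the models. Shares of reads have Wilson 95% intervals. Junctions were not moved between builds. Named genes are the 10 members, up to 4 leading genes of each list with its lowest and every called gene, and up to 2 leading markers. Some such genes are summarised only in counts. The neural markers and single junctions were named after their values were seen. The members, lists and alternatives were chosen with earlier results of these data known. Alternatives covered units, the mm9 tables, single libraries, pseudocounts, scalings, count minimums, tests and the discovery rate.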

Additional observations from a re-analysis of the deposited data

How the results depend on the processing

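The median of the members over that of detected genes was 3.60 on the log2 scale and ranged from 3.33 to 3.87 under FPKM, counts per length, the mm9 gene table and either library alone. Single members moved differently, since Ppp1r15a and not Atf4 had the highest mean in the mm9 gene table. The share of Eif2ak1 among the kinases was 78.2%, 80.2% in the mm9 gene table, and 77.3 to 79.1% with 1 library left out. The mm9 table gave log2 ratios of -2.68 for Ppp1r15b to Ppp1r15a, 3.97 for Atf4 to Ddit3 and 6.81 for Asns to Trib3, against -2.13, 3.07 and 7.04. Coding transcripts only, an alternative added after seeing the data, gave -2.97, 3.22 and 7.13. Counts per kilobase of annotated length gave 3.35 for Atf4 to Ddit3, and a pseudocount of 1 TPM gave 3.01 for it and 5.68 for Asns to Trib3. With 1 library left out these ratios ranged from -2.37 to -1.89, from 3.05 to 3.08 and from 7.03 to 7.05. No member was called between libraries under any scaling, count minimum or edgeR's exact test, and 7 were without a fold minimum. These calls are on counts, and in TPM Eif2ak2 passed 2-fold (log2 ratio -1.07). Spike-in scaling changed the sign of 6 members. Atf4 came to 0.14, Ppp1r15a to 0.28, Asns to 0.35, Eif2ak3 to 0.60 and Trib3 to 0.46. Eif2ak2 came to 0.001, which is no difference in either direction. Eif2ak3 and Trib3 had not passed by TMM, so they had no clear direction to reverse. Leading isoforms held a median of 87.5%, or 85.1 to 90.01% with 1 library left out. This counts Atf4, whose only model holds 100% by definition. Unannotated junctions held 2.08% of the members' junction reads and 1.30% with a discovery rate under 0.1. The cause of these shifts was not tested. No paired analysis was possible because the series has 1 group, so there are no groups to pair. Leaving out a library leaves nothing to compare between libraries. Depth limits Trib3 most, at 156 and 87 counts.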

Other observations

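Hspa5, the main chaperone of the endoplasmic reticulum, gave different answers by unit. It was at 245 TPM in replicate 1 and 72.7 TPM in replicate 2, while its counts of 45262 and 20174 differed by -0.53 on the log2 scale after TMM scaling. The related chaperones Hsp90b1 and Calr were at 135 and 62.1 TPM and at 252 and 143 TPM, with count differences of -0.86 and -0.59. With spike-in scaling the median of all genes moves by 0.66 towards replicate 2, and that applies to these values too.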
